A study of Mus musculus with 24 samples.

Results

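Mettl3 KO and Mettl14 KO ES cells were compared with each other for the immunoprecipitation (IP) signal that remained with an anti-m6A antibody. For every gene and every repeat subfamily the quantity compared was the log2 ratio of IP to input in Mettl3 KO minus the same ratio in Mettl14 KO, with input and IP of one biological replicate taken as a pair. This comparison rests on 8 of the 24 libraries of the series, an input and an IP library in 2 replicates of each knockout. The 8 MeRIP-seq libraries (m6A RNA immunoprecipitation followed by sequencing) of the parental control lines were fitted together with them, and 4 nuclear RNA-seq libraries of the knockouts were a further readout.

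All 4 lines were mouse ES cells of a 129/Sv x C57Bl6 background. Mettl14 KO cells were a single CRISPR clone, A10, of WT26 cells, and WT26 was their control line. Guides for both Mettl3 and Mettl14 had been transfected. By the paper, A10 has a small homozygous frameshift deletion in Mettl14 that leaves a truncated protein, and its catalytic domain of Mettl3 is intact. Mettl3 KO cells were a single clone, 2c4d, obtained from another study and derived from RBC ES cells, which carry Rosa26:BirA-V5 and Cre-ERT2, and RBC was their control line. They were grown feeder-free on gelatin in medium with serum replacement and LIF, and RNA was taken from nuclei. Each knockout is 1 clone of its own parental line. The mutated gene and the line or clone therefore cannot be told apart in a direct comparison of the knockouts.

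The m6A mark is placed on nascent mRNA by a complex in which METTL3 is the catalytic subunit and METTL14 is the partner that holds the RNA substrate, while WTAP and RBM15 recruit and direct the pair. The complex favours the sequence context DRACH, of which GGAC is the core, and the mark is densest in long internal exons and around stop codons. YTH-domain proteins read the mark and ALKBH5 and FTO remove it. A few RNAs are methylated by other enzymes, such as U6 snRNA and the Mat2a mRNA by METTL16, and in ES cells m6A is known for its part in the turnover of pluripotency mRNAs.

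The sequences below show the favoured letters in mRNAs that the results turn on. Counts were taken over whole genes, so they do not place the antibody signal at any of these stretches. Each is a stretch of 30 bases of the longest protein-coding transcript, printed 5′ to 3′ on the strand of the transcript with positions in GRCm38, and the capitals mark the GGACT nearest to the stop codon. The first 6 are from mRNAs whose enrichment was higher in Mettl14 KO than in Mettl3 KO cells, while Fzd1 and Sox2 were enriched in both knockouts with no difference called.
Tst, chr15:78399967-78399996, minus strand, coding part: catgcccttcatGGACTtcctgacgaaaga
Btbd6, chr12:112978541-112978570, plus strand, after the stop codon: taaggttggagtGGACTtgccaccaggctc
Pop7, chr5:137501492-137501521, minus strand, after the stop codon: cttcagcctagaGGACTgagaatggagagc
Prdm14, chr1:13113830-13113859, minus strand, after the stop codon: ctagtgctgctaGGACTtaactgctaaacc
Klf4, chr4:55527789-55527818, minus strand, after the stop codon: ttgaacatgcccGGACTtacaaaatgccaa
Wtap, chr17:12975047-12975076, minus strand, after the stop codon: cctgatgccgtcGGACTattccgaagaaga
Fzd1, chr5:4756697-4756726, minus strand, coding part: tctgggggagaaGGACTgcggcgcaccctg
Sox2, chr3:34651369-34651398, plus strand, after the stop codon: catgtgagggctGGACTgcgaactggagaa

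The Mat2a transcript, whose enrichment was higher in Mettl3 KO cells, held TACAGAGAA, the letters of the METTL16 substrate, 5 times after its stop codon. The capitals mark these letters.
Mat2a, chr6:72434234-72434263, minus strand, after the stop codon: tggcgtaggtTACAGAGAAgccttcaagct
Mat2a, chr6:72433450-72433479, minus strand, after the stop codon: ccttgtgataTACAGAGAAgtcacagggca
Mat2a, chr6:72433271-72433300, minus strand, after the stop codon: ctggtgtagcTACAGAGAAaccagcttcct
Mat2a, chr6:72433156-72433185, minus strand, after the stop codon: atggcgtaagTACAGAGAAgccatcacctc
Mat2a, chr6:72432937-72432966, minus strand, after the stop codon: gctggtgtggTACAGAGAAgccagcttgtt
Of the 14820 longest protein-coding transcripts searched on their own strand, 678 (4.57%) held TACAGAGAA at least once and 1, Mat2a, held it 5 times or more. GGACT was present in 13591 of them (91.7%).

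The MeRIP-seq table held raw counts of 47937 genes and 1153 repeat subfamilies, and totals of the 8 knockout libraries ran from 9394163 to 22510083. After a filter on low counts 22700 features were tested, 21604 genes and 1096 repeats. Reads of the targeted genes did not fall away in either clone. Mettl3 had 641 and 503 normalised counts (counts divided by a size factor of the library) in the inputs of Mettl14 KO and 553 and 474 in those of Mettl3 KO cells, and Mettl14 had 262 and 229 in the former and 312 and 308 in the latter, so transcript counts cannot check the labels. The 10 ES cell markers summed to between 13616.7 and 16323.1 normalised counts in the 4 knockout inputs. The 5 primitive endoderm markers summed to 209 and 183.2 in Mettl14 KO, against 113.6 and 144.5 in Mettl3 KO, the 5 markers of primed epiblast and mesoderm to between 73.7 and 110.3, and the 5 of fibroblasts to between 28.7 and 42.7. Sox17 and Col3a1 were at 0 in both Mettl14 KO inputs, and Sox17 had at most 0.9 in Mettl3 KO. The 4 neural markers summed to 460 and 410.4 in Mettl14 KO and to 922.7 and 783.5 in Mettl3 KO inputs, and each of the 4 was above 0 in every input. The part of such cells in the results was not tested.

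The strength of the IP differed between replicate numbers and between knockouts. Across 13707 features the SD of the log2 IP to input ratio was 0.853 in pair 1 and 1.42 in pair 2 of Mettl14 KO. In Mettl3 KO cells it was 0.719 and 0.951. The slope of these ratios on the mean of the control lines was 0.704 and 1.23 in Mettl14 KO cells, beside 0.784 and 1.27 in WT26 and 0.693 and 1.25 in RBC. The slope of the Mettl3 KO pairs was 0.489 and 0.749, lower than in the pair of the same number in any other line. The Mettl3 KO pairs therefore spanned a narrower range on both sides of 0, with less gain in features enriched in the controls and less depletion in features depleted there. Whether the IP itself was less selective in these pairs was not tested.

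**Figure D1:**
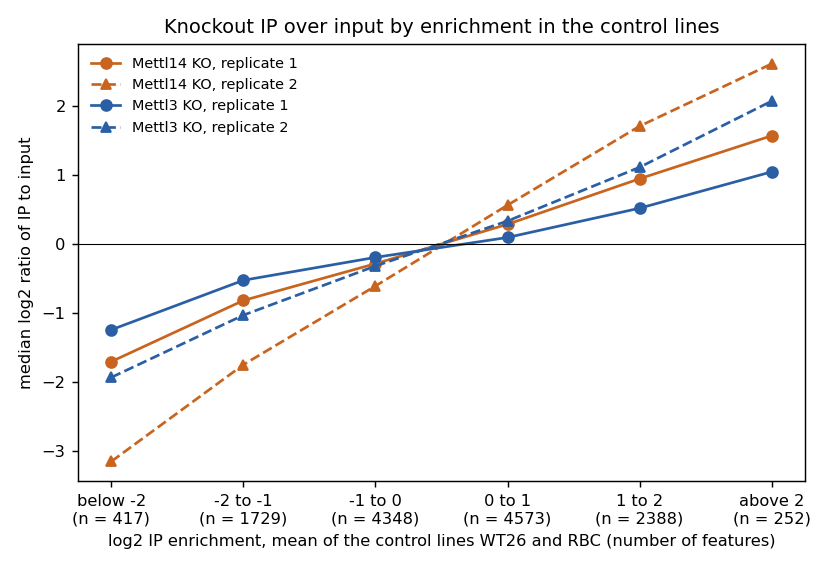
Median log2 ratio of IP to input (vertical axis) in 6 bins of the mean enrichment of the control lines (horizontal axis), 1 line for each pair of input and IP of Mettl14 KO and Mettl3 KO cells. Mettl3 KO pairs lie nearer to 0 than the Mettl14 KO pair of the same number at both ends, for example at -1.24 against -1.70 in pair 1 and -1.93 against -3.15 in pair 2 in the lowest bin.

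The bins of control enrichment give the same pattern by level. In the 252 features with a control mean above 2 on the log2 scale the median ratios were 1.57 and 2.62 in the Mettl14 KO pairs and 1.05 and 2.08 in the Mettl3 KO pairs. In the 417 features with a control mean below -2 they were -1.70 and -3.15 in Mettl14 KO, against -1.24 and -1.93 in Mettl3 KO. The 4573 features between 0 and 1 had medians of 0.29 and 0.57 in Mettl14 KO, against 0.10 and 0.34 in Mettl3 KO.

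IP over input was tested in each knockout with edgeR's quasi-likelihood test over all 16 MeRIP-seq libraries, and a feature was called enriched at a Benjamini-Hochberg adjusted p up to 0.05 with a log2 enrichment above 1. With the pairs of input and IP as the only block, 502 features (2.21% of those tested) were enriched in Mettl3 KO and 2583 (11.4%) in Mettl14 KO cells, and the difference between the knockouts was called in 0 features (0%). At an unadjusted p under 0.05 there were 605, and DESeq2 with the same design called 2 features as higher in Mettl3 KO and 0 as higher in Mettl14 KO cells. The biological coefficient of variation of this fit was 0.235.

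Pairs of the same number deviated together in all 4 lines. The correlation of their deviations across 13707 features, which are not independent replicates, lay between 0.772 and 0.796 among WT26, Mettl14 KO and RBC. Between Mettl3 KO and each of these lines it was lower, from 0.567 to 0.604, so the Mettl3 KO pairs shared the deviation least. A term for the replicate number in the IP, shared by the 4 lines, was therefore added after the data had been seen. The coefficient of variation was then 0.0991. Whether a term shared with the other lines suits the Mettl3 KO pairs was not tested. All calls and fitted values that follow are from this fit and edgeR, and each depends on that term. In it, 2087 features (9.19%) were enriched in Mettl3 KO and 3733 (16.4%) in Mettl14 KO cells.

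With the number term, enrichment was higher in Mettl3 KO than in Mettl14 KO cells in 613 features (2.7%), 453 genes and 160 repeats, and higher in Mettl14 KO in 1031 features (4.54%), 1022 genes and 9 repeats. Of these, 116 and 293 differed by more than 1 on the log2 scale. The features higher in Mettl14 KO were mostly mRNAs, 931 of 1031, with a median log2 enrichment of 1.17 in Mettl14 KO against 0.27 in Mettl3 KO cells. The features higher in Mettl3 KO were mostly RNAs that the antibody did not enrich: 549 of the 613 had less IP than input in Mettl14 KO, with a median log2 enrichment of -1.21 there and -0.41 in Mettl3 KO cells.

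Scaling by library size alone, in place of size factors, gave 245 features higher in Mettl3 KO and 1021 higher in Mettl14 KO cells. The counts also rested on single pairs. They were 3206 and 2687 without pair 1 of Mettl3 KO, 74 and 489 without pair 2 of Mettl3 KO, 365 and 404 without pair 1 of Mettl14 KO, and 37 and 66 without pair 2 of Mettl14 KO. Of 120 called features chosen for naming, 21 were called without any one of the pairs and 99 lost the call without at least 1 pair. Calls were lost by 89 of them without pair 2 of Mettl14 KO, 53 without its pair 1, 65 without pair 2 of Mettl3 KO and 6 without its pair 1.

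**Figure D2:**
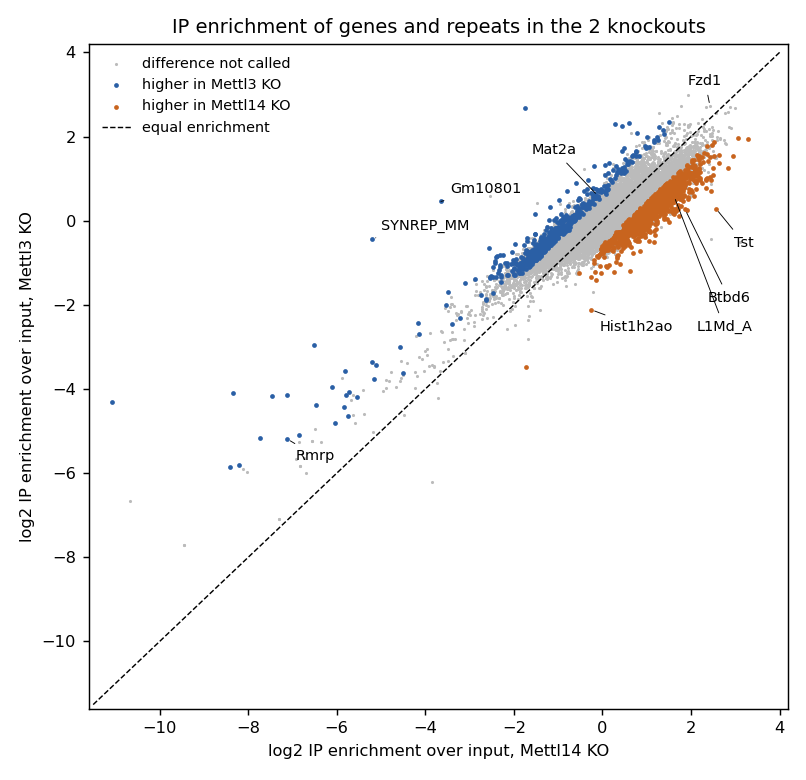
Log2 IP enrichment in Mettl14 KO (horizontal axis) and in Mettl3 KO cells (vertical axis) for tested features with a mean of at least 50 normalised counts, with features called as different between the knockouts coloured by direction. Features higher in Mettl14 KO lie mostly where Mettl14 KO is above 0 and those higher in Mettl3 KO mostly where it is below 0, as 549 of the 613 were over all tested features.

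Enrichment was kept in one knockout and not in the other when the feature was enriched in the first, not enriched in the second, and called as different. This held for 543 features (2.39%) in Mettl14 KO and for 50 (0.22%) in Mettl3 KO cells. A feature not called enriched could still have more IP than input, short of the limit of 1. Among the 543, 266 had a log2 enrichment under 0.5 in Mettl3 KO, and the median there was 0.51. Of the 543, 479 were protein-coding, 28 were pseudogenes and 3 were repeats, and 471 were enriched in both control lines. Their median log2 ratios were 0.94 and 1.89 in the pairs of Mettl14 KO, beside 0.97 and 1.82 in WT26 and 0.89 and 1.81 in RBC. In the Mettl3 KO pairs the medians were 0.21 and 0.76. The pair ratios of the knockouts did not overlap in 364 of the 543. These features were chosen by a called difference in the same ratios, and the share over all features was not taken. The gap between the medians and the count of 364 are therefore no further support.

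The 50 features called as kept in Mettl3 KO differed from the 543 in the controls. Of the 50, 36 were protein-coding and 11 were pseudogenes, 11 carried a ribosomal protein symbol (Rpl or Rps), and 2 were enriched in both control lines. Their median log2 enrichment was 0.54 in WT26 and 0.51 in RBC, against 1.39 in Mettl3 KO. For them the word kept names the call, and not a level held from the controls. Their median log2 ratios were 0.80 and 0.01 in Mettl14 KO, 0.97 and 0.10 in WT26, 0.75 and 0.29 in RBC, while the Mettl3 KO pairs had 1.25 and 1.49. At the median the ratio stood above that of either control in both Mettl3 KO pairs. The 50 were chosen by their enrichment in these same pairs, so a high median there follows in part from the choice. The counts of 543 and 50 ran from 43 to 1136 and from 3 to 483 when 1 knockout pair was left out, lowest without pair 2 of Mettl14 KO and highest without pair 1 of Mettl3 KO.

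The mRNAs of these groups had different median lengths. Protein-coding members kept in Mettl14 KO had a median transcript of 3766 bases and a median longest exon of 2447 bases, and 3.97% of their transcripts held no GGACT. Those kept in Mettl3 KO had a median transcript of 819.5 bases and a longest exon of 506 bases, and 52.8% held no GGACT. Over all tested protein-coding genes the medians were 3316 and 1904 bases and the share without GGACT was 7.5%. A short transcript has fewer places for any word of 5 letters, so the share without GGACT moves with length.

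Levels in the inputs and in the IPs contributed differently. The features kept in Mettl14 KO had a median log2 difference, Mettl3 KO minus Mettl14 KO, of 0.16 in the inputs and -0.73 in the IPs. Those kept in Mettl3 KO had -0.65 in the inputs and 0.51 in the IPs, so the lower input was part of their higher ratio. In nuclear RNA-seq, an independent set of libraries of the same lines, the medians were 0.10 over 515 genes kept in Mettl14 KO and -0.25 over 42 genes kept in Mettl3 KO. Of genes with an adjusted p up to 0.05 and more than a 2-fold change, 28 of the 515 were higher in Mettl3 KO (background 5.52% of genes) and 19 higher in Mettl14 KO (background 7.78%). Of the 42, 0 were called in edgeR in either direction.

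The mRNA with the largest difference in favour of Mettl14 KO among well-counted genes was Tst, a mitochondrial sulfurtransferase also called rhodanese (ENSMUSG00000044986.8, chr15:78399556-78405907). It had normalised counts of 19.7 and 16.8 in the inputs and 83.3 and 146 in the IPs of Mettl14 KO, and 60.9 and 78.7 in the inputs and 55.3 and 128 in the IPs of Mettl3 KO. The inputs were lower and the IPs higher in Mettl14 KO within each number, and the ratios of the knockouts did not overlap. Its log2 enrichment was 2.57 in Mettl14 KO against 0.28 in Mettl3 KO, a difference of -2.29 (SE 0.37, adjusted p = 0.00469). Most of this lay in the input, where Mettl3 KO was higher by 1.87 on the log2 scale and the Mettl14 KO counts were low.

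Btbd6, a BTB-domain adaptor of a cullin ubiquitin ligase (ENSMUSG00000002803.13, chr12:112976482-112978945), had normalised counts of 167 and 112 in the inputs and 357 and 751 in the IPs of Mettl14 KO, and 185 and 175 in the inputs and 176 and 261 in the IPs of Mettl3 KO. The inputs of the knockouts lay nearer to each other than the IPs did. The log2 enrichment was 1.86 in Mettl14 KO against 0.27 in Mettl3 KO, a difference of -1.60 (SE 0.26, adjusted p = 0.00469), with 2.02 in WT26 and 1.73 in RBC. Pop7, a subunit of RNase P and RNase MRP (ENSMUSG00000029715.5, chr5:137501438-137502518), had normalised counts of 34.1 and 46.3 in the inputs and 133 and 305 in the IPs of Mettl14 KO, and 104 and 80.3 in the inputs and 139 and 176 in the IPs of Mettl3 KO. Its enrichment was 2.34 in Mettl14 KO against 0.78 in Mettl3 KO, a difference of -1.56 (SE 0.29, adjusted p = 0.00671), and its input was higher in Mettl3 KO.

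Among mRNAs with a mean of at least 300 normalised counts, a set added after their values were seen, B3gnt7, a glycosyltransferase of keratan sulfate chains, had 1105 and 2371 in the Mettl14 KO IPs and 931 and 982 in the Mettl3 KO IPs, from inputs of 509 and 599.8 in Mettl14 KO and of 1016 and 652 in Mettl3 KO. The difference was -1.31 (SE 0.17, adjusted p = 0.00044). Crkl, an adaptor with SH domains, had inputs of 432 and 495 in Mettl14 KO, against 448 and 517 in Mettl3 KO, and IPs of 793 and 1501 in the former and 399 and 565 in the latter. Its enrichment was 1.24 in Mettl14 KO against -0.01 in Mettl3 KO, a difference of -1.25 (SE 0.19, adjusted p = 0.00264). Sh3bp4, a regulator of endocytosis, differed by -1.23 (adjusted p = 0.00495), Marveld1 by -1.22 (adjusted p = 0.00495) and 2510039O18Rik by -1.21 (adjusted p = 0.00363). All 5, with Tst, Btbd6, Pop7 and Prdm14, were called without any one of the 4 knockout pairs.

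**Figure D3:**
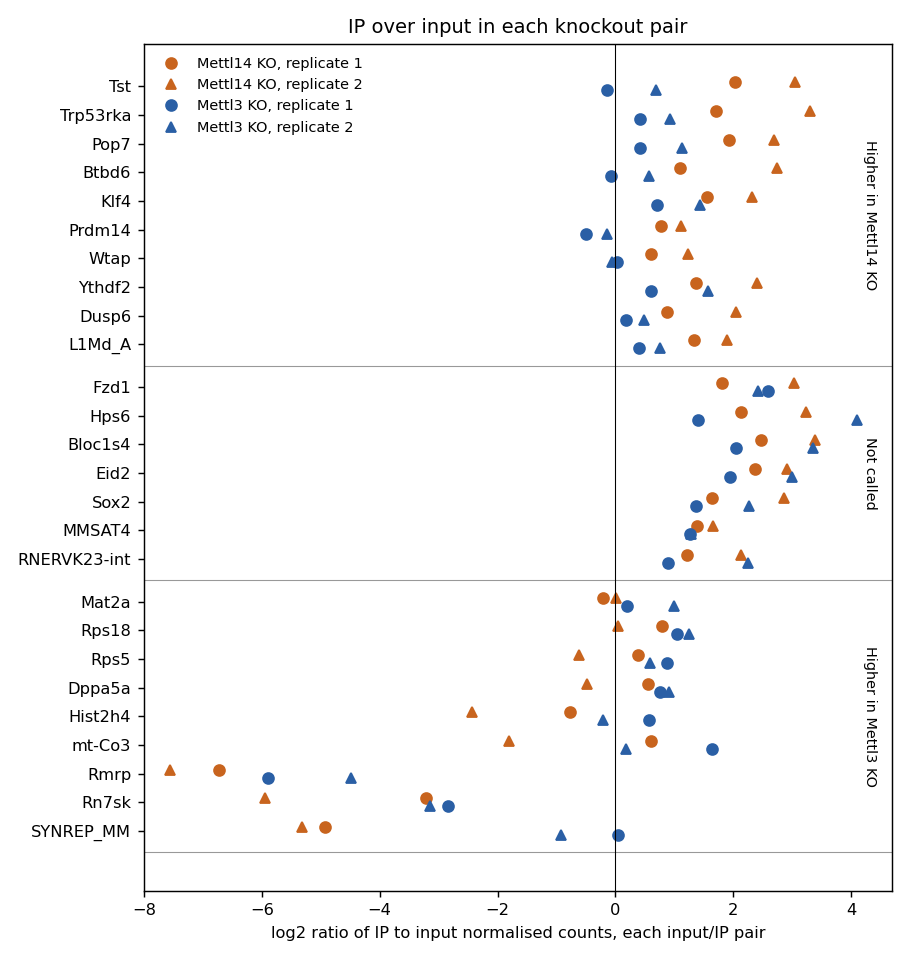
Log2 ratio of IP to input normalised counts (horizontal axis) in each pair of the knockouts for members the text describes (vertical axis), with circles for replicate 1 and triangles for replicate 2. The Mettl14 KO points of Tst, Btbd6 and Pop7 lie to the right of those of Mettl3 KO, and those of SYNREP_MM far to the left.

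Other members named by size of difference were Trp53rka (-1.74, adjusted p = 0.00775), Slc16a13 (-1.60, adjusted p = 0.0164), Zfp551 (-1.59, adjusted p = 0.0221), Tmem37 (-1.49, adjusted p = 0.0217) and the pseudogene Fth-ps2 (-1.66, adjusted p = 0.0138), whose reads may come from its parent gene. The noncoding or unnamed genes Gm17068, Gm15550 and 4930526A20Rik differed by -1.81, -1.68 and -1.35 (adjusted p = 0.0182, 0.0151 and 0.0263).

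Of 26 pluripotency mRNAs, 9 (34.6%, beside 4.54% over all features) had higher enrichment in Mettl14 KO. Higher in Mettl3 KO was 1 (3.85%, beside 2.7%), and 16 were not called. The median difference was -0.53 beside 0.03 over all features tested. Their median enrichment in the controls was 1.08 (WT26) and 1.10 (RBC). Of 2388 features with a control mean from 1 to 2 and at least 50 normalised counts, 23.5% were higher in Mettl14 KO. The median difference of these 2388 was -0.52. The 9 were Klf4, Klf5, Klf2, Tbx3, Esrrb, Myc, Sall4, Sall1 and Prdm14, all of them transcription factors. The 9 became 1 without pair 2 of Mettl14 KO, 4 without its pair 1, 6 without pair 2 of Mettl3 KO and 15 without its pair 1. Klf4, a factor of the naive state (ENSMUSG00000003032.8, chr4:55527143-55532466), had normalised counts of 867 and 1105 in the inputs and 2550.2 and 5531 in the IPs of Mettl14 KO, and 1478 and 1437 in the inputs and 2415 and 3900.5 in the IPs of Mettl3 KO. It was enriched in both knockouts, at 1.94 and 1.08, with a difference of -0.87 (SE 0.17, adjusted p = 0.00819). The log2 difference of Klf4, Mettl3 KO minus Mettl14 KO, was 0.57 in the inputs and -0.29 in the IPs. Prdm14, which represses differentiation genes in naive ES cells, had 129 and 143 in the inputs and 221 and 312 in the IPs of Mettl14 KO, and 321 and 299 in the inputs and 226 and 269.5 in the IPs of Mettl3 KO. Here the IP of Mettl3 KO was below its input, and enrichment was 0.97 in Mettl14 KO against -0.32 in Mettl3 KO, a difference of -1.28 (SE 0.23, adjusted p = 0.00524).

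Enrichment of Klf5, Tbx3, Sall4 and Sall1 was kept in Mettl14 KO by the call above and not in Mettl3 KO. Their differences were -0.62, -0.71, -0.77 and -0.82 (adjusted p = 0.0442, 0.0195, 0.0152 and 0.00958). Short of the limit of 1, Klf5 still had a log2 enrichment of 0.87 in Mettl3 KO (adjusted p = 1.5e-05 in edgeR). Tbx3 had 0.34 there (adjusted p = 0.0253). Nanog had a difference of -0.54 (95% interval -0.90 to -0.18, adjusted p = 0.0596) and Sox2 of -0.43 (95% interval -0.79 to -0.07, adjusted p = 0.124), neither past the threshold. Sox2 had normalised counts of 639 and 551 in the inputs and 1987 and 4016 in the IPs of Mettl14 KO, and 877 and 898 in the inputs and 2256 and 4342 in the IPs of Mettl3 KO, an enrichment of 2.25 in Mettl14 KO against 1.82 in Mettl3 KO. Dppa5a, a short ES cell mRNA, went the other way, with 2071 and 2969.6 in the inputs and 3053 and 2120.4 in the IPs of Mettl14 KO, and 652 and 731 in the inputs and 1097 and 1365 in the IPs of Mettl3 KO and a difference of 0.78 (SE 0.22, adjusted p = 0.0386). Its input was lower in Mettl3 KO by a log2 difference of -1.84.

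Among 22 mRNAs of signalling genes listed for their long exons, the median difference was -0.50 and 0 were higher in Mettl3 KO. Their median enrichment in the controls was 1.27 (WT26) and 1.27 (RBC). In the 2388 features with a control mean from 1 to 2 and at least 50 normalised counts, the median difference was -0.52. Of these, 23.5% were higher in Mettl14 KO. On the signalling list, enrichment was higher in Mettl14 KO in 8 of the 22 (36.4%, beside 4.54% over all features). They were Axin2, a feedback inhibitor of WNT signalling, Dusp6 and Spry4, which restrain ERK, Smad7 and Socs3, which restrain TGF-beta and JAK-STAT signalling, the ligands Nodal and Fgf4, and the early response gene Ier2. Dusp6 had normalised counts of 236 and 252 in the inputs and 435 and 1046 in the IPs of Mettl14 KO, and 161 and 144 in the inputs and 182 and 202 in the IPs of Mettl3 KO, and its enrichment was 1.46 in Mettl14 KO against 0.37 in Mettl3 KO, a difference of -1.08 (SE 0.22, adjusted p = 0.0109). The differences of the other 7 lay between -1.15 for Axin2 and -0.65 for Fgf4. Nodal and Ier2 stayed enriched in both knockouts, with 1.60 and 1.61 left in Mettl3 KO. The 8 became 0 without pair 2 of Mettl14 KO, 2 without its pair 1 and 14 without pair 1 of Mettl3 KO. Of 26 mRNAs with very long exons 0 were higher in Mettl3 KO, with a median of -0.39. Their median enrichment in the controls was 1.14 (WT26) and 1.23 (RBC), within the same range from 1 to 2. Higher in Mettl14 KO were 3 (11.5%, beside 4.54% over all features), Zfhx3, Znfx1 and Setd2. These 3 became 0 without either pair of Mettl14 KO, 1 without pair 2 of Mettl3 KO and 15 without its pair 1.

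Within the m6A writer complex 2 of 8 mRNAs were called, both higher in Mettl14 KO (25%, beside 4.54% over all features). The median enrichment of the 8 in the controls was 1.07 (WT26) and 0.94 (RBC). Of features with at least 50 normalised counts, 8.22% at a control mean from 0 to 1 were higher in Mettl14 KO. At a control mean from 1 to 2 this was 23.5%. Wtap, the regulatory subunit, had normalised counts of 1015 and 1038 in the inputs and 1544 and 2450.1 in the IPs of Mettl14 KO, and 1157 and 1185 in the inputs and 1177 and 1138 in the IPs of Mettl3 KO, so that its IP was above input in both Mettl14 KO pairs and about level with it in Mettl3 KO. The log2 enrichment was 0.92 against -0.01, a difference of -0.93 (SE 0.20, adjusted p = 0.0145). Rbm15, an adaptor of the complex, remained enriched in both, at 1.72 and 1.16, and differed by -0.57 (adjusted p = 0.0398). Of 11 readers and erasers, 3 (27.3%) were higher in Mettl14 KO, Ythdf1, Ythdf2 and Alkbh5, with differences of -0.76, -0.79 and -0.66. Another 2 (18.2%, beside 2.7% over all features), Hnrnpa2b1 and Ythdc2, were higher in Mettl3 KO, with 0.66 and 0.78. In the last 2 the enrichment was below 0 in Mettl14 KO and nearer to it in Mettl3 KO. Mettl14 and Mettl3 themselves differed by 0.36 and -0.41, neither called (adjusted p = 0.316 and 0.221). Without pair 2 of Mettl14 KO 0 of these writers, readers and erasers were called.

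Chromatin regulators had few calls. Of 14 polycomb and trithorax mRNAs 2 (14.3%, beside 4.54% over all features) were higher in Mettl14 KO and 1 (7.14%, beside 2.7%) in Mettl3 KO. The H3K4 methyltransferases Kmt2b and Kmt2d were higher in Mettl14 KO, with differences of -0.73 and -0.58, and the H3K27 methyltransferase Ezh2 was higher in Mettl3 KO by 0.71. Of 18 heterochromatin mRNAs 1 (5.56%) was higher in Mettl14 KO and 3 (16.7%) in Mettl3 KO. The chaperone Daxx was higher in Mettl14 KO with a difference of -0.66, and Trim28, Cbx5 and Hells were higher in Mettl3 KO, by 0.66, 0.78 and 0.66. Trim28, a corepressor that silences retrotransposons, had 4116 and 4967 in the inputs and 1939.8 and 1735 in the IPs of Mettl14 KO, and 4543 and 5008 in the inputs and 2694 and 3469.6 in the IPs of Mettl3 KO. Its IP was below its input in all 4 pairs and further below in Mettl14 KO, so no enrichment was kept. Without pair 2 of Mettl14 KO none of the chromatin regulators was called.

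Cytoplasmic ribosomal protein mRNAs, short transcripts of abundant proteins, were called on the Mettl3 KO side only in this fit. Of the 32 on the list, 11 (34.4%, beside 2.7% over all features) were higher in Mettl3 KO and 0 in Mettl14 KO. The median difference was 0.58. Of all 87 genes with an Rpl or Rps symbol 33 (37.9%) were higher in Mettl3 KO and 0 in Mettl14 KO. With scaling by library size alone 2 of the 32 were called, and the median was 0.54. Without pair 2 of Mettl3 KO 0 of the 32 were called and the median was 0.16, without pair 1 of Mettl3 KO 31 (median 1.04), without pair 2 of Mettl14 KO 0 (0.48) and without its pair 1 6 (0.70). Rps18 had normalised counts of 3005 and 3462 in the inputs and 5214 and 3558 in the IPs of Mettl14 KO, and 1853 and 1874 in the inputs and 3813 and 4456 in the IPs of Mettl3 KO, and its enrichment was 0.42 in Mettl14 KO against 1.14 in Mettl3 KO, a difference of 0.72 (SE 0.20, adjusted p = 0.0339). Rpl38 had 1074 and 1450.1 in the inputs and 3116 and 1922 in the IPs of Mettl14 KO, and 761 and 706 in the inputs and 2599 and 2406 in the IPs of Mettl3 KO, with a difference of 0.78 (SE 0.21, adjusted p = 0.0294). In both, the Mettl3 KO inputs were lower and the second IP of Mettl3 KO was higher than that of Mettl14 KO. Ribosomal protein genes have many processed pseudogenes, and reads could be split between them.

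The median input of the 87 ribosomal protein genes was lower in Mettl3 KO by a log2 difference of -0.36, and in nuclear RNA-seq their median difference was -0.27. Ribosomal protein reads took 0.635% and 0.625% of the Mettl3 KO inputs and 0.769% and 0.801% of the Mettl14 KO inputs. In the IPs they took 1.36% and 1.43% in Mettl3 KO and 1.53% and 0.938% in Mettl14 KO. The IPs of replicate 2 in the controls were at 0.976% (WT26) and 0.963% (RBC), so among the replicate 2 IPs the Mettl3 KO library stood apart.

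Other mRNAs called as kept in Mettl3 KO, with a mean of at least 300 normalised counts, were added after their values were seen. They were Ndufa1, a subunit of respiratory complex I, Elob, a subunit of elongin, Larp7, which binds 7SK RNA, and Mylpf. Ndufa1 had 169 and 261 in the inputs and 353 and 342 in the IPs of Mettl14 KO, and 158 and 136 in the inputs and 369 and 618 in the IPs of Mettl3 KO, a difference of 0.90 (SE 0.27, adjusted p = 0.0478). Larp7 had 274 and 276 in the inputs and 569 and 494 in the IPs of Mettl14 KO, and 206 and 152 in the inputs and 556 and 707 in the IPs of Mettl3 KO, a difference of 0.81 (SE 0.24, adjusted p = 0.0425). For each of these the Mettl3 KO inputs were below those of Mettl14 KO and the ratios did not overlap. Elob and Mylpf differed by 0.73 and 0.86 (adjusted p = 0.0446 and 0.0486).

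The features with the highest enrichment among those kept in Mettl3 KO were Gm14586, Gm13192, Gm5963 and Gm9385, at 2.33, 2.29, 2.24 and 2.09 on the log2 scale. Gm14586 had 18.8 and 370.4 in the inputs and 66.9 and 309 in the IPs of Mettl14 KO, and 10.9 and 122 in the inputs and 65.1 and 441 in the IPs of Mettl3 KO, and the replicates of its inputs lay far apart in both knockouts. Without pair 2 of Mettl3 KO the difference of Gm13192 turned to -0.47. Histone Hist1h2ap was also kept by the call, from 88.8 and 272 in the inputs and 0 and 144 in the IPs of Mettl14 KO, and 0 and 138 in the inputs and 338 and 225 in the IPs of Mettl3 KO. With libraries at 0 in either knockout its fitted ratio is not a fold.

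Replication-dependent histone mRNAs, which lack a poly(A) tail, were called higher in Mettl3 KO in 3 of 28 (10.7%, beside 2.7% over all features). These were Hist1h4c, Hist2h4 and Hist2h2bb. Higher in Mettl14 KO were 0, and the median difference was 0.57. Without pair 2 of Mettl3 KO the median was 0.05 with 1 called in each direction, and without its pair 1 it was 1.06 with 17 called. Without pair 1 of Mettl14 KO 12 were called (median 0.98) and without its pair 2 there was 1 (0.25). Hist2h4 had 129 and 130.5 in the inputs and 75.4 and 23.3 in the IPs of Mettl14 KO, and 179.8 and 186 in the inputs and 268 and 161 in the IPs of Mettl3 KO, so that the IP was below input in Mettl14 KO and above it in 1 of the Mettl3 KO pairs, a difference of 1.69 (SE 0.29, adjusted p = 0.00495). A histone gene outside the list, Hist1h2ao, had 274 and 274 in the inputs and 353 and 149 in the IPs of Mettl14 KO, and 426 and 141 in the inputs and 119 and 36.4 in the IPs of Mettl3 KO and a difference of -1.86 (SE 0.29, adjusted p = 0.00349), the opposite direction. Histone genes of a cluster are near-identical, and reads assigned to one may come from another.

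Mitochondrially encoded RNAs, whose transcription takes place outside the nucleus, were called higher in Mettl3 KO in 7 of 15 (46.7%, beside 2.7% over all features). Higher in Mettl14 KO were 0, and the median difference was 0.72. The 7 became 1 without pair 2 of Mettl3 KO (median 0.35), 13 without its pair 1 (1.07), 2 without pair 2 of Mettl14 KO (0.46) and with scaling by library size alone (0.68). mt-Co3, a subunit of cytochrome oxidase, had 5333 and 4659.5 in the inputs and 8098 and 1335 in the IPs of Mettl14 KO, and 2363 and 1326 in the inputs and 7349 and 1503 in the IPs of Mettl3 KO. The Mettl14 KO IP was below its input in replicate 2 and above it in replicate 1, and the Mettl3 KO pairs were higher within each number. The log2 difference was 1.49 (SE 0.27, adjusted p = 0.00524). Their inputs were lower in Mettl3 KO by a median log2 difference of -0.80, and the part of cytoplasmic RNA in the nuclei was not tested.

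Structured RNAs of the nucleus such as Rmrp, Rn7sk and Rpph1 had far less IP than input in both knockouts, and less so in Mettl3 KO. Of 18 nuclear noncoding RNAs, 5 (27.8%, beside 2.7% over all features) were higher in Mettl3 KO, Gas5, Rn7sk, Xist, Rmrp and Rpph1. Neat1 alone (5.56%, beside 4.54%) was higher in Mettl14 KO, and the median difference was 0.40. The 5 became 1 without pair 2 of Mettl14 KO, 2 without pair 2 of Mettl3 KO and with scaling by library size alone. Rmrp, the RNA of RNase MRP (ENSMUSG00000088088.1), had 80859 and 58613 in the inputs and 764 and 310.5 in the IPs of Mettl14 KO, and 71009 and 51356 in the inputs and 1190.4 and 2301 in the IPs of Mettl3 KO. The IP held a small part of the input in every pair, and enrichment was -7.12 in Mettl14 KO against -5.19 in Mettl3 KO, a difference of 1.93 (SE 0.34, adjusted p = 0.00495). Rn7sk, the RNA that holds P-TEFb inactive, had 58630.5 and 75967 in the inputs and 6322 and 1237 in the IPs of Mettl14 KO, and 43383 and 36627 in the inputs and 6072 and 4117 in the IPs of Mettl3 KO, a difference of 1.57 (SE 0.32, adjusted p = 0.0113).

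Rpph1, the RNA of RNase P, differed by 1.09 (adjusted p = 0.0408), and Xist, the X inactivation RNA, by 0.68 (adjusted p = 0.0338). Neat1, the scaffold of paraspeckles, had 4543 and 6059 in the inputs and 5793 and 4508 in the IPs of Mettl14 KO, and 5950.1 and 5901 in the inputs and 3723 and 3280.2 in the IPs of Mettl3 KO. In the IP it was lower than in the input in both Mettl3 KO pairs and in 1 of the Mettl14 KO pairs, a difference of -0.73 (SE 0.19, adjusted p = 0.0313). Small nucleolar RNAs were part of the same range: Snora73a had 4991 and 2951 in the inputs and 11.1 and 9.6 in the IPs of Mettl14 KO, and 6655 and 3565 in the inputs and 23.4 and 198 in the IPs of Mettl3 KO, a difference of 2.54 (adjusted p = 0.0336), while Snora64 had 156 and 88.4 in the inputs and 34.7 and 32.8 in the IPs of Mettl14 KO, and 167 and 64.2 in the inputs and 7.8 and 11.4 in the IPs of Mettl3 KO and differed in the opposite direction by -1.76 (adjusted p = 0.0221).

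Other genes with the largest positive differences were small RNA copies with few IP reads in Mettl14 KO. Gm24305 had IP counts of 5.9 and 1.4 in Mettl14 KO, against 14.3 and 30.2 in Mettl3 KO, from inputs of at least 307. Gm47299, Gm47287, Rn7s1 and Rnu3b1 had an IP library at 0 in replicate 2 of Mettl14 KO. Gm47299 had IP counts of 9.2 and 0 in Mettl14 KO, against 35.8 and 154 in Mettl3 KO, Gm47287 had 138 and 0 in the former and 125 and 405 in the latter, and Rn7s1 had 454 and 0 and then 446 and 856. No fold is given for these genes. Gm23444 and Gm47295 had at most 3 raw counts in each Mettl14 KO IP, and Gm22614 in each Mettl3 KO input, and no fold is given for them either.

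Of 7 listed substrates of other m6A methyltransferases 5 were tested, all of them protein-coding. The U6 snRNA gene Rnu6 and the ribosomal RNA gene Rn18s-rs5 were not tested. Of the 5, 1 (20%, beside 2.7% over all features) was higher in Mettl3 KO. Mat2a, which encodes the methionine adenosyltransferase that makes the methyl donor, was the only one of the 5 to be called. It had normalised counts of 5076 and 4678 in the inputs and 4396 and 4691 in the IPs of Mettl14 KO, and 3941 and 4232 in the inputs and 4496 and 8411 in the IPs of Mettl3 KO (ENSMUSG00000053907.10, chr6:72432799-72439558). The IP of replicate 2 of Mettl3 KO stood above the other 3, and the ratios did not overlap. Its log2 enrichment was -0.10 in Mettl14 KO, 0.59 in Mettl3 KO, -0.13 in WT26 and -0.23 in RBC, and the difference between the knockouts was 0.69 (SE 0.18, adjusted p = 0.0285). It was called in 1 of the 4 fits that left out a pair, the one without pair 1 of Mettl3 KO, with differences from 0.37 to 1.01, and not with scaling by library size alone. The 5 copies of TACAGAGAA printed above lie in its last exon.

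**Figure D4:**
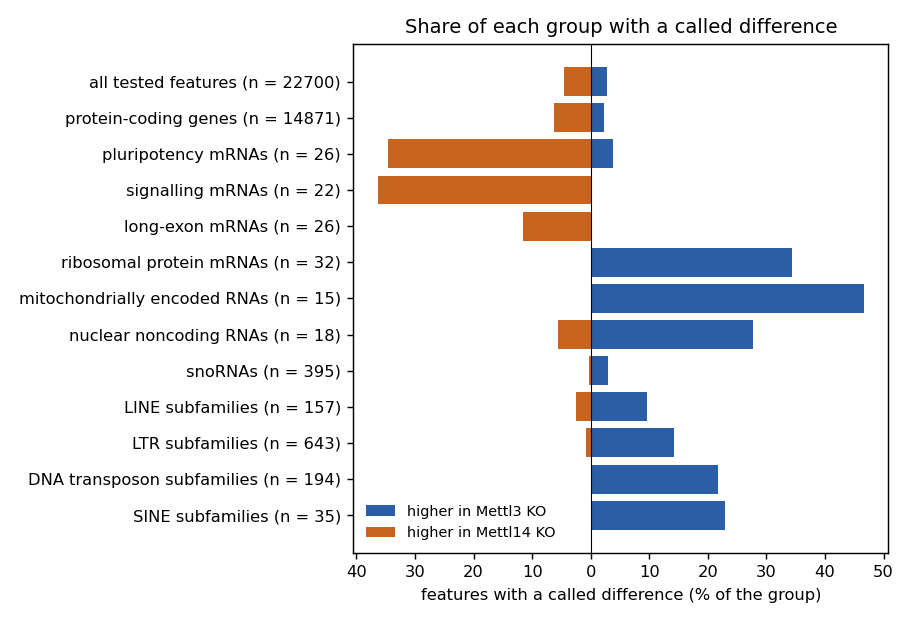
Share of the tested members of each group (horizontal axis, in percent) with higher enrichment in Mettl14 KO and with higher enrichment in Mettl3 KO cells, beside the shares over all features of 4.54% and 2.7%. Not drawn are features by control mean, of which 23.5% from 1 to 2 were higher in Mettl14 KO. From -2 to -1, 17.35% were higher in Mettl3 KO. Pluripotency mRNAs and the signalling mRNAs, listed for their long exons, have called members mainly on the Mettl14 KO side. Ribosomal protein and mitochondrial RNAs have them on the Mettl3 KO side.

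Enrichment remained in both knockouts in 1493 features, and in 1388 of these the difference was not called, in 95 it was higher in Mettl14 KO and in 10 higher in Mettl3 KO. The 1388 had a median log2 enrichment of 1.70 in Mettl14 KO against 1.38 in Mettl3 KO, beside 1.71 in WT26 and 1.66 in RBC. Members with the highest enrichment in both were added after their values were seen. Bloc1s4, a subunit of an organelle biogenesis complex, had 23.3 and 25.3 in the inputs and 134 and 275 in the IPs of Mettl14 KO, and 40.0 and 28.9 in the inputs and 168 and 303 in the IPs of Mettl3 KO. Its enrichment was 2.98 in Mettl14 KO against 2.68 in Mettl3 KO, and the difference was -0.30 (95% interval -1.03 to 0.44, adjusted p = 0.645).

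Fzd1, a WNT receptor, had 23.3 and 18.9 in the inputs and 83.9 and 161 in the IPs of Mettl14 KO, and 7.3 and 11.2 in the inputs and 48.8 and 64.5 in the IPs of Mettl3 KO, with an enrichment of 2.43 and 2.72 and a difference of 0.30 (95% interval -0.79 to 1.38). Inputs of Fzd1 were low in Mettl3 KO, and the interval was wide. Hps6 differed by -0.19 (95% interval -1.08 to 0.70), Eid2 by -0.20 (-1.07 to 0.66) and Tagap by -0.27 (-1.04 to 0.50), and the interval of Arl4d ran from -0.47 to 0.47. These intervals do not show that the knockouts acted alike, and those of Bloc1s4, Hps6, Eid2 and Tagap reached below -1.

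The controls put these classes in context. Of 3310 features enriched in both WT26 and RBC (14.6%), 2853 were enriched in Mettl14 KO, 1396 in Mettl3 KO, 1318 in both and 379 in neither. The difference between the knockouts was called in favour of Mettl14 KO in 588 of the 3310 (17.8%, beside 4.54% over all features). In 11 (0.33%, beside 2.7%) it was called in favour of Mettl3 KO. Of 3365 features depleted in both controls (14.8%), it was called in favour of Mettl3 KO in 345 (10.25%) and of Mettl14 KO in 2 (0.06%). The same contrast between the control lines, RBC minus WT26, was called in 8 features (0.0352%).

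Against its own control line, enrichment changed in 2995 features (13.2%) in Mettl3 KO, 1273 up and 1722 down, and in 12 features (0.0529%) in Mettl14 KO, 6 up and 6 down. A test of the difference between these changes called 7 features (0.0308%), against 0 with the pairs alone, so most of the 1644 features called between the knockouts did not pass once each was set against its own parental line. This test carries the error of all 4 lines. For Tst the difference of the changes was -2.15 (adjusted p = 0.184), for Btbd6 -1.30 (adjusted p = 0.239) and for B3gnt7 -1.19 (adjusted p = 0.118), none past the threshold. Without pair 1 of Mettl3 KO it called 3187 features.

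Repeat subfamilies had at the median less IP than input, with a log2 enrichment of -1.18 in Mettl14 KO and less depletion, -0.73, in Mettl3 KO. Their median enrichment in the controls was -1.37 (WT26) and -1.22 (RBC). Of 1729 features of any kind with a control mean from -2 to -1 and at least 50 normalised counts, 17.35% were higher in Mettl3 KO. Of 1096 repeats tested, 160 (14.6%, beside 2.7% over all features) were higher in Mettl3 KO. In 159 of these the IP was below input in Mettl14 KO. Enrichment was higher in Mettl14 KO in 9 (0.82%, beside 4.54%). The median difference over all repeats was 0.46, beside 0.51 in the 1729 features with a control mean from -2 to -1. The 160 became 2 without pair 2 of Mettl14 KO, 56 without its pair 1, 24 without pair 2 of Mettl3 KO, 553 without its pair 1 and 60 with scaling by library size alone. By class, 91 of 643 LTR, 42 of 194 DNA, 15 of 157 LINE and 8 of 35 SINE subfamilies were higher in Mettl3 KO, and 5 LTR and 4 LINE subfamilies were higher in Mettl14 KO. Repeat rows sum reads over all copies, so they do not show which copies were bound.

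The 9 subfamilies higher in Mettl14 KO, listed after their values were seen, were the young LINE elements L1Md_A, L1Md_Gf, L1Md_T and L1_Mm and the LTR subfamilies RLTR10B, RLTR10F, LTR53, MER89 and MERVL-int. L1Md_A, an autonomous element with full-length copies, had normalised counts of 59469 and 56190.2 in the inputs and 149899 and 209816 in the IPs of Mettl14 KO, and 31534 and 33062 in the inputs and 41802 and 55987 in the IPs of Mettl3 KO. Levels were higher in Mettl14 KO already in the inputs, and the ratio of IP to input was higher there within each number. Its log2 enrichment was 1.62 in Mettl14 KO against 0.58 in Mettl3 KO, a difference of -1.03 (SE 0.19, adjusted p = 0.00524), beside 1.91 in WT26 and 1.28 in RBC. Between the parental lines the difference was -0.63 (RBC minus WT26, adjusted p = 1), in the same direction and not called, and the difference of the changes was -0.41 (adjusted p = 0.556).

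L1Md_Gf had 6718 and 5291 in the inputs and 18247 and 27511 in the IPs of Mettl14 KO, and 3641 and 3462 in the inputs and 6089.9 and 12432 in the IPs of Mettl3 KO, and stayed enriched in both knockouts at 1.91 and 1.29, a difference of -0.62 (SE 0.16, adjusted p = 0.0304). L1Md_T likewise stayed enriched in both, at 1.63 and 1.02, and differed by -0.60 (adjusted p = 0.0415). The F subfamilies of the same family were not called: L1Md_F differed by -0.28 (95% interval -0.66 to 0.10), L1Md_F2 by -0.21 (-0.60 to 0.19) and L1Md_F3 by -0.24 (-0.61 to 0.14). For L1VL1, L1VL2 and L1VL4 the differences were -0.05, 0.17 and 0.10, also not called. L1_Mm had 11943 and 17159 in the inputs and 15987 and 24208 in the IPs of Mettl14 KO, and 24369.8 and 24177 in the inputs and 16877 and 18351 in the IPs of Mettl3 KO, a difference of -0.92 (SE 0.16, adjusted p = 0.00524), beside 0.66 in WT26 and -0.67 in RBC. The difference between these parental lines was -1.33 (RBC minus WT26, adjusted p = 0.000851).

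RLTR10B, an ERVK long terminal repeat, had 578 and 482 in the inputs and 655 and 664 in the IPs of Mettl14 KO, and 357 and 387 in the inputs and 232 and 168 in the IPs of Mettl3 KO. Its IP was above input in Mettl14 KO and below input in Mettl3 KO, a difference of -1.19 (SE 0.22, adjusted p = 0.00709). The control lines were near each other for this element, at 0.41 and 0.49, and the difference of the changes was -1.27 (adjusted p = 0.184). RLTR10F differed by -0.76, LTR53 by -0.93, MER89 by -0.58 and MERVL-int, an element of the early embryo, by -0.72 (adjusted p = 0.0251, 0.0288, 0.0451 and 0.0311). L1Md_A and RLTR10B were called without any one of the knockout pairs.

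Among ERVK elements of the IAP group, IAPEz-int had 24985 and 27318 in the inputs and 16781 and 11768 in the IPs of Mettl14 KO, and 26184 and 30129 in the inputs and 19611 and 15758 in the IPs of Mettl3 KO. Its IP was below input in both knockouts, and the difference was 0.22 (95% interval -0.12 to 0.56, adjusted p = 0.424). Of 9 IAPEY subfamilies tested, IAPEY3_LTR and IAPEY4_I-int were higher in Mettl3 KO, by 0.66 and 0.59, again with less IP than input, and the other 7 lay between -0.43 and 0.89. RNERVK23-int kept its enrichment in both, at 1.68 and 1.57, with a difference of -0.11 (95% interval -0.56 to 0.33).

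The satellite repeats differed from each other. Major satellite, GSAT_MM, had 408 and 309 in the inputs and 551 and 356 in the IPs of Mettl14 KO, and 1695 and 536 in the inputs and 2071 and 596 in the IPs of Mettl3 KO. Its input was higher in Mettl3 KO, but the enrichment was low in both knockouts, 0.34 and 0.23, against 1.90 in WT26 and 1.40 in RBC, and the difference between the knockouts was -0.11 (95% interval -0.51 to 0.29, adjusted p = 0.774). MMSAT4 had 32166 and 27785 in the inputs and 84263 and 87146 in the IPs of Mettl14 KO, and 35843 and 29009.6 in the inputs and 86254 and 70497 in the IPs of Mettl3 KO, and was enriched in both knockouts at 1.52 and 1.27, with a difference of -0.25 (95% interval -0.64 to 0.15).

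SYNREP_MM showed the largest difference of any repeat named. It had 10842 and 3136 in the inputs and 355 and 78.0 in the IPs of Mettl14 KO, and 123 and 99.6 in the inputs and 126 and 52.0 in the IPs of Mettl3 KO, so that its input in Mettl14 KO was far above that of Mettl3 KO while the IPs overlapped. The log2 enrichment was -5.20 in Mettl14 KO against -0.43 in Mettl3 KO, a difference of 4.77 (SE 0.23, adjusted p = 1.16e-11), and the difference in the inputs alone was -5.71. Gm10801, a predicted gene, had the same shape, with 872 and 356 in the inputs and 57.0 and 39.7 in the IPs of Mettl14 KO, and 82.7 and 28.9 in the inputs and 104 and 45.8 in the IPs of Mettl3 KO and a difference of 4.11 (SE 0.30, adjusted p = 2.53e-08). Both, with Hist2h4, mt-Co3 and Rmrp, were called without any one of the knockout pairs, and neither kept enrichment in Mettl3 KO, at -0.43 and 0.46. The control lines had an enrichment of -2.64 (WT26) and -1.09 (RBC) for SYNREP_MM and of 1.46 and 1.54 for Gm10801.

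Other repeats with large positive differences were the 7SK rows, with 22388 and 19126 in the inputs and 2590.2 and 506 in the IPs of Mettl14 KO, and 15831 and 8532 in the inputs and 2683 and 1225 in the IPs of Mettl3 KO and a difference of 1.46 (SE 0.26, adjusted p = 0.00524), and 3 low-count subfamilies. L1MEg1 differed by 1.55, LTR53B by 1.55 and Charlie10b by 1.43 (adjusted p = 0.0116, 0.0327 and 0.0355). In all 4 the IP was below input in Mettl14 KO.

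**Figure D5:**
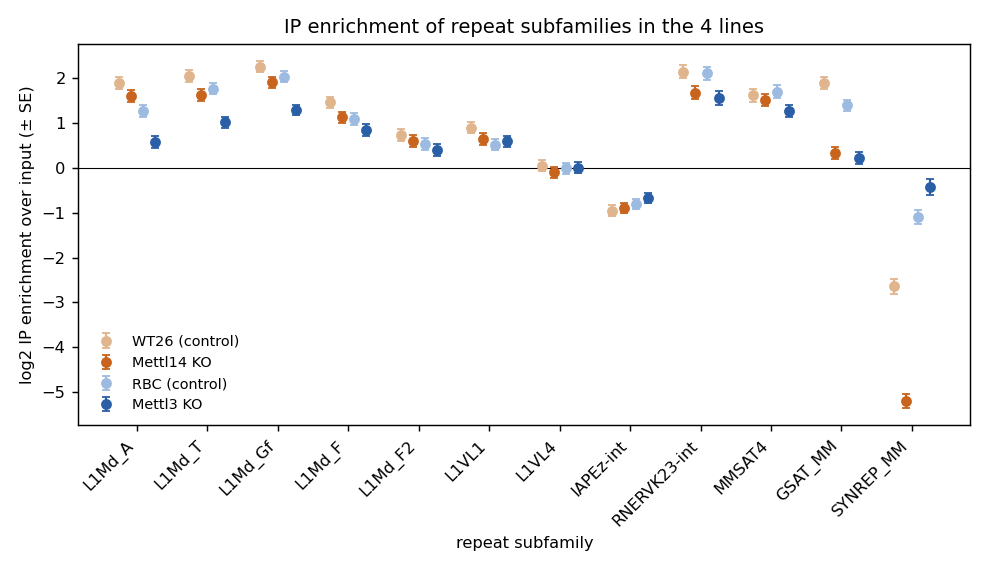
Fitted log2 IP enrichment over input (vertical axis, bars show the SE) of 12 repeat subfamilies (horizontal axis) in Mettl14 KO and Mettl3 KO cells and their control lines. L1Md_A is at 1.62 in Mettl14 KO against 0.58 in Mettl3 KO, SYNREP_MM at -5.20 and -0.43, and GSAT_MM is near 0 in both knockouts.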

How the data were processed

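Nuclear RNA was fragmented by sonication and immunoprecipitated with an anti-m6A antibody, with several MeRIP reactions combined for each biological replicate, and input and IP were sequenced as stranded total RNA libraries. The authors deposited raw counts, whole reads per gene and, for MeRIP-seq, per repeat subfamily, without normalization. Per their notes and methods, reads were trimmed with cutadapt 1.8.1, aligned to GRCm38 with STAR 2.6.0c with multimapping reads kept, and counted with TEtranscripts and the RepeatMasker annotation. Multimapping reads are thereby shared among copies. The strand setting of the counting is not given in the sources used here, so overlapping genes cannot be told apart with certainty. All table columns were matched to samples by label (0 left over).

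Counts were fitted in R 4.3.3 with edgeR 4.0.16 (glmQLFit and glmQLFTest), with size factors of DESeq2 1.42.0, filterByExpr and Benjamini-Hochberg adjustment over all 22700 features tested in the 16 MeRIP-seq libraries, or 17022 genes in the 8 RNA-seq libraries (11321459 to 13743181 reads). MeRIP-seq totals ran from 9394163 to 28441282 and set counting error only. With 2 replicates in each group the spread between replicates limits precision. Adjusted p-values measure that spread in the RNA-seq fit and in the designed MeRIP-seq fit. In the fit with the number term they measure only what is left after the spread shared by the lines was taken out. The coefficient of variation was 0.0991 there, against 0.235 in the designed fit. The sources call the replicates biological. Sampling noise was exceeded between the replicates of every group, with a chi-square of at least 21.5 for each degree of freedom. Input and IP of one number form a pair, since they come from the same nuclear RNA. The designed fit held 8 pairs and an IP effect for each line. The fit used for the named values added the replicate number in the IP and was chosen after the data were seen.

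Genes were named when they had the largest differences in each direction (10 genes and 5 repeats with an adjusted p of at most 0.05, a mean of at least 50 normalised counts and no overlap of pair ratios), when they were the 5 most enriched of those kept in one knockout, when the study names them, or when they were called members of a list. The rule was applied to the fit with the number term. Members and lists were chosen with earlier results of these data known. Normalised counts are given in the order replicate 1 and 2, ratios of single pairs use a pseudocount of 1, and intervals are at 95%, not adjusted for the number of features. Sequences were read from GRCm38 with its GENCODE annotation, which matched 47224 genes. The tests were tried on simulated data.

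Alternatives were DESeq2's Wald test, TMM, library size alone, no filter, a minimum of 10 counts in all libraries, the knockout libraries alone, no block, genes and repeats apart, a log2 difference above 1 and leaving out each knockout replicate. The spike-in and the beads control were not analysed here.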

Additional observations from a re-analysis of the deposited data

Results flagged for a closer look

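Enrichment differed between the knockouts by a test of the difference itself in 613 features higher in Mettl3 KO and 1031 higher in Mettl14 KO cells. Of these, 50 and 543 were called as kept in that knockout alone. Only 2 of the 50, against 471 of the 543, were enriched in both control lines. With the pairs of input and IP as the only block, edgeR called 0 features. When each knockout was set against its own control line, 7 features differed in their change of enrichment. SYNREP_MM and Gm10801 (adjusted p = 1.68e-05 for both in edgeR) changed less in Mettl3 KO, with inputs in Mettl14 KO far above those in Mettl3 KO cells. Gm10736 (adjusted p = 0.046) had normalised counts of 230.5 and 170.5 in the inputs and 291 and 86.2 in the IPs of Mettl14 KO, and 175 and 56.2 in the inputs and 383 and 206 in the IPs of Mettl3 KO. For n-R5-8s1 (adjusted p = 0.0375) replicate 2 was at 0 in the input and the IP of both knockouts. Gm22614 (adjusted p = 0.00128), Gm8178 (adjusted p = 9.69e-05) and Gm47295 (adjusted p = 0.0138) had a knockout group with at most 3 raw counts in each library, which leaves no fold to give. In Gm8178 this group was the input of Mettl14 KO.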

How the results depend on the processing

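The block on input and IP pairs alone called 0 features in either direction between the knockouts, 0 kept in either alone, 0 between the control lines and 0 between the changes against the control lines, with 502 enriched in Mettl3 KO and 2583 in Mettl14 KO. Adding the replicate number to this replicate block gave 613 higher in Mettl3 KO and 1031 higher in Mettl14 KO, 50 and 543 kept, 8 and 7 for the controls and for the changes, and 2087 enriched in Mettl3 KO. With pairs alone, features higher in Mettl3 KO numbered 2 in DESeq2, 1 with TMM, 16 without a filter, 3 in the knockout libraries alone and 2 with genes and repeats apart. Without a filter 2 were higher in Mettl14 KO, 4 were kept in Mettl3 KO, 2 in Mettl14 KO, 8 differed between controls and 10 in their changes. The knockout libraries alone gave 1 kept in Mettl3 KO, and DESeq2 gave 1 difference of changes. Enrichment in Mettl3 KO was called in 1134 features by DESeq2, 2582 by library size alone, 1642 without a filter and 1071 in the knockout libraries alone, and in Mettl14 KO in 5286 by library size alone. Leaving out 1 knockout pair gave 0 to 1 features higher in Mettl3 KO, 0 to 773 enriched in Mettl3 KO (0 without either of its own pairs) and 1 to 2436 in Mettl14 KO (1 without its pair 2).

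With the number term, DESeq2 gave 32 kept in Mettl3 KO, 4 between controls and 14 between changes. Library size alone gave 245 higher in Mettl3 KO and 4165 and 6240 enriched in Mettl3 KO and Mettl14 KO. Without a filter there were 1053 higher in Mettl3 KO, 102 kept in Mettl3 KO, 40 between controls and 123 between changes, and with at least 10 counts in all libraries 1346 and 2484 enriched in Mettl3 KO and Mettl14 KO, 4 between controls and 2 between changes. A log2 difference above 1 left 116 and 293 higher, and 17 and 203 kept, in Mettl3 KO and Mettl14 KO. Leaving out 1 knockout pair gave 37 to 3206 higher in Mettl3 KO, 66 to 2687 higher in Mettl14 KO, 3 to 483 and 43 to 1136 kept, 19 to 58 between controls and 17 to 3187 between changes, with the remaining pair assumed to vary like the other lines. In each of these ranges for the knockouts the lowest count was without pair 2 of Mettl14 KO and the highest without pair 1 of Mettl3 KO, and the cause was not tested. Among named features, the difference of Gm13192 ran from -0.47 without pair 2 of Mettl3 KO, a reversal, to 2.37 without its pair 1. In nuclear RNA-seq the adjusted p alone gave 4491 and 4598 genes higher in Mettl3 KO and Mettl14 KO, and a block on the replicate number changed no count by over 1.5 times.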
